A study of Arabidopsis thaliana with 42 samples.

Results

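The genes described here are 7 calmodulin-like (CML) genes of Arabidopsis thaliana: CML23 (AT1G66400), CML30 (AT2G15680), CML37 (AT5G42380), CML38 (AT1G76650), CML41 (AT3G50770), CML42 (AT4G20780) and CML43 (AT5G44460). They were chosen by symbol, as the probe sets with exactly 1 gene in the platform annotation whose symbol starts with the name of a calcium sensor, a calcium-dependent kinase, a MAP kinase cascade member or an SnRK kinase followed by a digit. Of the 13513 probe sets with 1 gene in that annotation, 7 met this rule. All of them were CML genes, since no CPK, CIPK, CBL, CAM, MPK, MKK or SnRK symbol was matched, so nothing below describes those kinases as families. Whole roots of 7 accessions were profiled on ATH1 arrays, which were designed on the Col0 sequence and carry 11 short probe elements for most probe sets. Seedlings grew in liquid culture for 12 days with ammonium succinate and sucrose and no nitrate. Treatment then lasted 2 hours, with KNO3 at 5 mM, or KCl at the same concentration as its control. The accessions were Kas2, NFA8, SQ8, TAMM27, Ts5, Var2-1 and Col0, which the study writes as Kas-2, NFA-8, Sq-8, Tamm-27, Ts-5, Var2-1 and Col-0, and every combination of accession and treatment had 3 arrays, 42 in all. Each array held RNA of a pool of seedling roots, so a change in a few cells and a change in all cells cannot be told apart.

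A rise of calcium in the cytosol follows many stimuli in plant cells, nitrate supply among them. Calmodulins and calmodulin-like proteins bind that calcium through EF-hand motifs and pass the signal on by binding other proteins, because they carry no kinase domain of their own. Calcium-dependent kinases (CPK) join sensor and kinase in a single protein, CBL sensors work through CIPK kinases, and MAP kinase cascades relay signals by stepwise phosphorylation.

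Values are MAS5 signals on a linear scale, a brightness in arbitrary units, and the study took a signal of 100 as the limit of detection. Differences were tested with limma on log2(signal + 1) over all 6590 probe sets with 1 nuclear gene and a mean signal of at least 100, with p-values adjusted over those probe sets and a threshold of 0.1. Array medians lay between 97.8 and 157.75, and between 49.5% and 62.5% of probe sets reached 100 on an array. The mean log2 ratio of 3' over 5' signal of the GAPDH, actin and ubiquitin control probe sets, which rises where the labelled RNA is shorter, ran between 0.824 and 4.44 over the arrays. Of the marker lists, 2 of 26 genes of green tissue (RCA and LHCB4.1) and 2 of 22 root genes (EXPA7 and EXPA18, of root hairs) could be named on the array, and none of these 4 was at 0 on any array.

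Within the 7 genes, 4 passed the signal filter (CML23, CML38, CML42 and CML43) and 3 did not (CML30, CML37 and CML41). The mean signals of the 4 were 200.2 for CML23, 229.0 for CML38, 347.2 for CML42 and 316.7 for CML43, and those of the other 3 were 78.1 for CML30, 60.3 for CML37 and 78.9 for CML41. A signal of 100 was reached on 31 arrays for CML23, 31 for CML38, 37 for CML42 and 40 for CML43, against 10 for CML30, 5 for CML37 and 9 for CML41. None of these genes had a signal of 0. The 4 tested genes varied widely between replicates: their residual SD within groups had a median of 1.11 on the log2 scale, against 0.556 over all tested probe sets, of which 5.49% lay above the genes' median. The range of their levels over the accessions was also wide, with a median of 2.33 (log2) against 1.06 for all tested probe sets, and for CML23 and CML38 it included signals under 100. A wide spread between replicates widens such a range by itself, and its share in these ranges was not tested.

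The first question was whether the level of these genes differed among the accessions, taking an accession's level as the mean of its KNO3 and KCl groups. CML23, CML38 and CML43 did so, 3 of the 4 tested, where 59.8% of all tested probe sets were called, so a difference of this kind was common on the array. The adjusted p-values of limma's F-test were 0.000562 for CML23, 0.00966 for CML38 and 0.0352 for CML43. CML42 was not called (adjusted p = 0.411, limma). The levels of CML23 spanned 7.87-fold and those of CML38 7.82-fold between the highest and the lowest accession, against 3.22-fold for CML43 and 2.84-fold for CML42. The lowest levels of CML23 and CML38, 33.9 and 34.8 in TAMM27, lay under the detection limit, so their folds are not measured in full. Set against a signal of 100 in place of TAMM27, the highest levels were 2.73-fold higher for CML23 and 2.79-fold for CML38. TAMM27 was the lowest of the 7 accessions for all 4 tested genes with all arrays. For CML42 and CML43 it was not called against the other 6 (adjusted p = 0.291 and 0.277, limma). It stood only 0.34 (log2) under Kas2 for CML42 and 0.04 under Ts5 for CML43. For CML42 Ts5 was lower (-1.19 against the other 6, with TAMM27 at -0.66) without Ts5 KCl replicate 2, and for CML43 SQ8 was lower (-0.93, with TAMM27 at -0.55) with the 3' over 5' ratio in the fit. Against the mean of the other 6 accessions, single accessions gave 4 calls among the 28 gene and accession pairs, where 17.1% of all such pairs were called, a share no smaller than that of these genes. These 4 were the lower levels of CML23 and of CML38 in TAMM27, the higher level of CML43 in Col0 and the higher level of CML23 in SQ8.

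**Figure D1:**
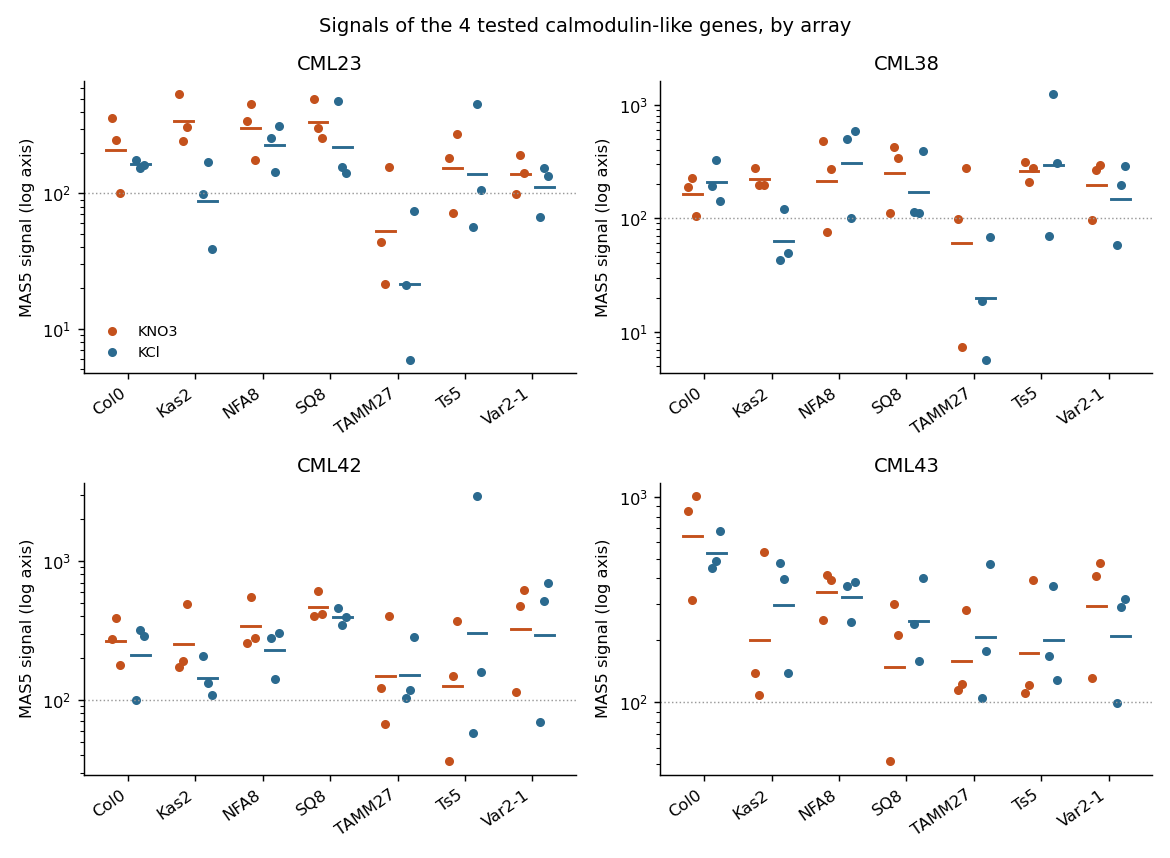
MAS5 signal (log axis) of CML23, CML38, CML42 and CML43 on each array, by accession, with KNO3 arrays left of KCl arrays. Points are single arrays, short lines are means on the log2 scale over 3 arrays, and the dotted line is the signal of 100. The TAMM27 arrays of CML23 and CML38 lie mostly under that line, and a single KCl array of Ts5 stands at 2938.9 for CML42.

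CML23 is the close relative of CML24 (TCH2), and the pair is known for roles in flowering time and nitric oxide levels. In TAMM27 its signals were 43.5, 21.5 and 157.8 in KNO3, against 20.9, 5.9 and 73.9 in KCl. In SQ8 they were 499.8, 303.8 and 257.8 in KNO3, against 485.6, 155.7 and 140.9 in KCl. Thus 5 of the 6 TAMM27 arrays lay under 100, and the remaining array overlapped the lower SQ8 arrays. NFA8 arrays ran between 144.6 and 460.7 with a median of 285.5, Col0 arrays between 101.6 and 358.8 with a median of 170.4, and Kas2 arrays between 39.1 and 540.9 with a median of 206.3. The medians of Ts5 and Var2-1 were close to each other: Ts5 had 144.6, with arrays between 56.3 and 455.4, and Var2-1 had 138.2, with arrays between 67 and 193.4. The order of levels was SQ8, NFA8, Col0, Kas2, Ts5, Var2-1 and TAMM27.

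The level of CML23 in TAMM27 was lower than in the other 6 accessions by a log2 difference of -2.43 (SE 0.41, adjusted p = 0.000103, limma), which is 5.39-fold, where 10.4% of tested probe sets were called lower in TAMM27. Only the step between Var2-1 and TAMM27 passed the test among neighbours in the order, with a log2 difference of 1.85 (95% interval 0.77 to 2.93, adjusted p = 0.0231, limma), whereas the next step up, between Ts5 and Var2-1, was 0.23 (95% interval -0.85 to 1.31). The size of the TAMM27 difference rested on signals under the detection limit. With every signal under 100 set to 100, it was -0.88 (1.84-fold, adjusted p = 0.0273, limma). With a pseudocount of 64 in place of 1 it was -1.26. The higher level in SQ8, with a log2 difference of 1.04 (SE 0.41, adjusted p = 0.0892, limma), stood close to the threshold, where 7.04% of tested probe sets were called higher in SQ8. It was lost when the 3' over 5' ratio entered the fit (0.58, adjusted p = 0.289, limma), and without SQ8 KCl replicate 1 (0.76, adjusted p = 0.27, limma).

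CML38 is a sensor known for its strong induction by low oxygen. Its signals in TAMM27 were 98.6, 7.3 and 274.3 in KNO3, against 18.7, 5.7 and 68.9 in KCl. In Ts5, the highest accession, they were 311.5, 209.1 and 277.1 in KNO3, against 69.2, 1231.6 and 303.6 in KCl. As for CML23, 5 of 6 TAMM27 arrays were under 100, and replicate 3 was the highest TAMM27 array in each treatment for both genes. In NFA8 the arrays ran between 76.2 and 582.7 (median 373.6), in SQ8 between 111.6 and 420 (median 226.9), and in Col0 between 104 and 322.6 (median 191.1). Var2-1 and Kas2 followed in the order of levels. Var2-1 arrays ran between 58 and 292.6 (median 231), and Kas2 arrays between 42.7 and 275.4 (median 157.6).

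The level of CML38 in TAMM27 was lower than in the other 6 accessions by a log2 difference of -2.46 (SE 0.53, adjusted p = 0.00181, limma), or 5.5-fold. No pair of neighbours in its order passed the test: the step between Kas2 and TAMM27 was 1.74 (95% interval 0.33 to 3.14, adjusted p = 0.138, limma), and the others were at most 0.53. Var2-1, the next accession up after Kas2, did lie above TAMM27, by 2.26 (adjusted p = 0.0356, limma), as did the other 4 by 2.37 to 2.97. With every signal under 100 set to 100 the TAMM27 difference was -0.83 and no longer passed (adjusted p = 0.114, limma), and neither did the difference among accessions (adjusted p = 0.184, limma). So the call for CML38 depended on how far its signals lay under the detection limit.

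CML43, a close relative of CML42 known for its role in defence against pathogens, was highest in Col0. Its Col0 signals were 849.8, 313.5 and 1006.4 in KNO3, against 449.5, 488.2 and 681 in KCl. In NFA8, the next in the order, they were 251.3, 416.7 and 392.2 in KNO3, against 368.1, 244.6 and 384.9 in KCl. The lowest Col0 array, at 313.5, lay within the NFA8 range, and the other 5 Col0 arrays lay above every NFA8 array. In TAMM27, the lowest in the order, the arrays ran between 105 and 471.1 (median 150.6), and in Ts5 between 111.1 and 392.7 (median 148.3). SQ8 arrays had a median of 226.6, Kas2 arrays one of 268.5 and Var2-1 arrays one of 304.

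The level of CML43 in Col0 exceeded the other 6 accessions by a log2 difference of 1.37 (SE 0.37, adjusted p = 0.00919, limma), 2.58-fold, where 12.9% of tested probe sets were called higher in Col0. Pair by pair, Col0 passed the test against TAMM27 (1.69, adjusted p = 0.0116, limma), Ts5 (1.64, adjusted p = 0.0158, limma), SQ8 (1.6, adjusted p = 0.0336, limma) and Kas2 (1.25, adjusted p = 0.0551, limma), but not against NFA8 (0.8, 95% interval -0.18 to 1.78) or Var2-1 (1.23, 95% interval 0.25 to 2.21, adjusted p = 0.101, limma). The other 6 accessions did not differ from each other beyond their spread in any pair. Elements of this probe set were discarded only in the other accessions, since Col0 was the standard for that step. In the KCl arrays alone the Col0 difference was 1.12 and was not called (adjusted p = 0.215, limma), and the difference among accessions was not called either (adjusted p = 0.525, limma).

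**Figure D2:**
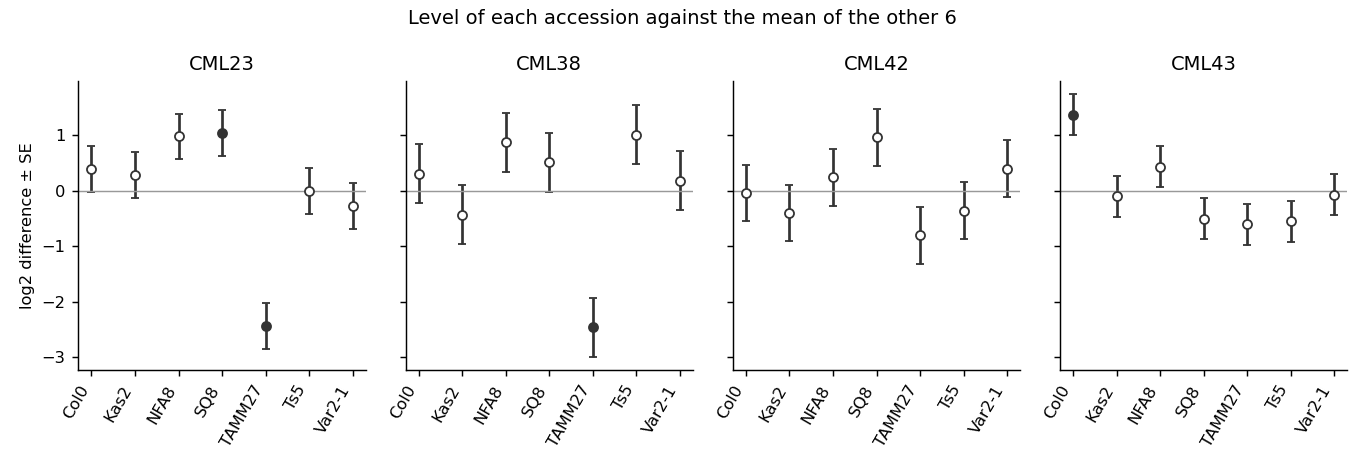
Level of each accession against the mean of the other 6, as a log2 difference with its SE from the fit over 42 arrays, for CML23, CML38, CML42 and CML43. Filled points passed the adjusted p of 0.1: TAMM27 (-2.43) and SQ8 (1.04) for CML23, TAMM27 (-2.46) for CML38 and Col0 (1.37) for CML43.

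CML42, known from work on leaf hairs and on defence against herbivores, had a single array far above its others. In Ts5 its signals were 36.1, 148.3 and 370.4 in KNO3, against 57.3, 2938.9 and 159.3 in KCl. In SQ8, the highest accession, they were 401.1, 611.8 and 412.1 in KNO3, against 456.7, 344 and 396.8 in KCl. The SQ8 arrays thus lay close together, while those of Ts5 spanned the whole range of this gene. In Var2-1 replicate 1 was low in both treatments, with 114.3 in KNO3 and 69.9 in KCl, beside 473.4 and 621.6 in KNO3 and 514.6 and 695.6 in KCl on the other arrays. Medians were 281.4 in NFA8, 281.1 in Col0, 180.6 in Kas2 and 120.5 in TAMM27. Without the Ts5 KCl array at 2938.9, the difference among accessions passed (adjusted p = 0.0527, limma), with SQ8 higher by 1.1 (adjusted p = 0.0695, limma) and Ts5 lower by a log2 difference of -1.19 (adjusted p = 0.0815, limma) against the other accessions. No accession was called for CML42 with all arrays.

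That Ts5 KCl array, replicate 2, was the highest of the 42 for CML42, for CML38 (1231.6) and for CML37 (336). AT1G76640, the locus beside CML38 for which the RefSeq gene table gives the synonym CML39 (a synonym it also lists for CML37), was looked at after its values were seen. It had a signal of 1725.9 on the same array, against 5.9 and 6.6 on the other KCl arrays of Ts5 and at most 32.8 on any other array. The 3' over 5' ratio of that array was 1.098, against 3.306 and 3.486 on the other KCl arrays of Ts5. Ts5 KNO3 replicate 3 had a ratio of 1.068, with 370.4 for CML42, 277.1 for CML38 and 13.6 for AT1G76640. The part of KCl replicate 2 in the Ts5 values was not tested beyond leaving that array out. Without KCl replicate 2 the KNO3 over KCl difference of CML42 in Ts5 was 0.4, against -1.25 with it, that of CML38 was 0.85, against -0.18 with it, and that of CML23 was 0.99, against 0.14 with it. None of these passed the test.

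The second question was whether nitrate changed the level of these genes within 2 hours. Averaged over the accessions, 0 of the 4 tested genes were called, where 0.789% of all tested probe sets were. At an unadjusted p under 0.05, 1 of the 4 was found in limma, CML23, where 8.5% of all tested probe sets were. Its averaged difference of KNO3 over KCl was 0.73 on the log2 scale (SE 0.28, unadjusted p = 0.0152, adjusted p = 0.424, limma), and its mean log2 signal was higher in KNO3 in 7 of 7 accessions. In Ts5, Col0 and Var2-1 that direction did not hold throughout. The mean linear signal of Ts5 was 177 in KNO3, against 206 in KCl. With single arrays left out, the lowest log2 difference was -0.51 in Ts5, -0.05 in Col0 (without its KNO3 replicate 1) and -0.04 in Var2-1. For CML38 the averaged difference was 0.46 (SE 0.37, adjusted p = 0.794, limma), with 4 of 7 accessions higher in KNO3. For CML42 it was 0.12 (SE 0.35, 5 of 7 accessions higher), and for CML43 -0.14 (SE 0.26, 3 of 7 accessions higher). The absolute averaged difference of the 4 genes had a median of 0.303, against 0.13 over all tested probe sets, of which 15.4% lay above it. Their residual SD within groups was larger too (median 1.11, against 0.556). A larger SD widens such differences even without a response, so this median is not read as one.

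Within single accessions 0 of 28 pairs of gene and accession were called, where 0.323% of all such pairs were. An unadjusted p under 0.05 was found for 1 of them, where 6.28% of all pairs had one. It was CML23 in Kas2, with 540.9, 242.2 and 311.4 in KNO3, against 99.8, 170.5 and 39.1 in KCl. CML38 in Kas2 had 275.4, 194.6 and 197.5 in KNO3, against 42.7, 120.6 and 49.1 in KCl. For both genes every KNO3 array of Kas2 lay above every KCl array. The arrays of the 2 treatments did not overlap for 19.8% of tested probe sets in Kas2, against 11.2% over the 7 accessions together. The log2 difference of CML23 in Kas2 was 1.96 (SE 0.75, adjusted p = 0.306, limma), and that of CML38 was 1.78 (SE 0.98, adjusted p = 0.574, limma), where 0.85% of tested probe sets were called in Kas2. The 3' over 5' ratio was 4.31, 3.93 and 1.89 on the KNO3 arrays of Kas2, against 4.40, 3.75 and 3.75 on its KCl arrays, and with that ratio in the fit the difference of CML23 was 1.62 (adjusted p = 0.238, limma). KNO3 and KCl arrays of the 4 tested genes overlapped in every other accession. In TAMM27 the differences were 1.27 for CML23 and 1.54 for CML38, with SEs of 0.75 and 0.98. They rested on signals mostly under 100, and were 0.22 and 0.49 with every signal under 100 set to 100. Leaving out a single TAMM27 array gave 0.42 (without KCl replicate 2) to 2.14 (without KCl replicate 3) for CML23, and 0.46 (without KNO3 replicate 3) to 2.98 (without KNO3 replicate 2) for CML38, and none was called. By replicate number, each KNO3 array of TAMM27 lay above its KCl array for both genes. Same-numbered TAMM27 arrays deviated together over all tested probe sets (r between 0.413 and 0.692), so leaving out a single array also unbalances the numbers.

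The third question was whether the response to nitrate differed among the accessions. By the interaction test 0 of the 4 genes were called, where 0.197% of all tested probe sets were, and none had an unadjusted p under 0.05 in limma. The response of CML23 in Kas2 exceeded the mean response of the other 6 by 1.44 (SE 0.81, adjusted p = 0.711, limma), and that of CML38 by 1.54 (SE 1.1, adjusted p = 0.8, limma), where 0.303% of tested probe sets were called for Kas2. For CML42 the response in Ts5 stood at -1.59 against the others (SE 1, adjusted p = 0.629, limma), where 0.228% of tested probe sets were called for Ts5.

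**Figure D3:**
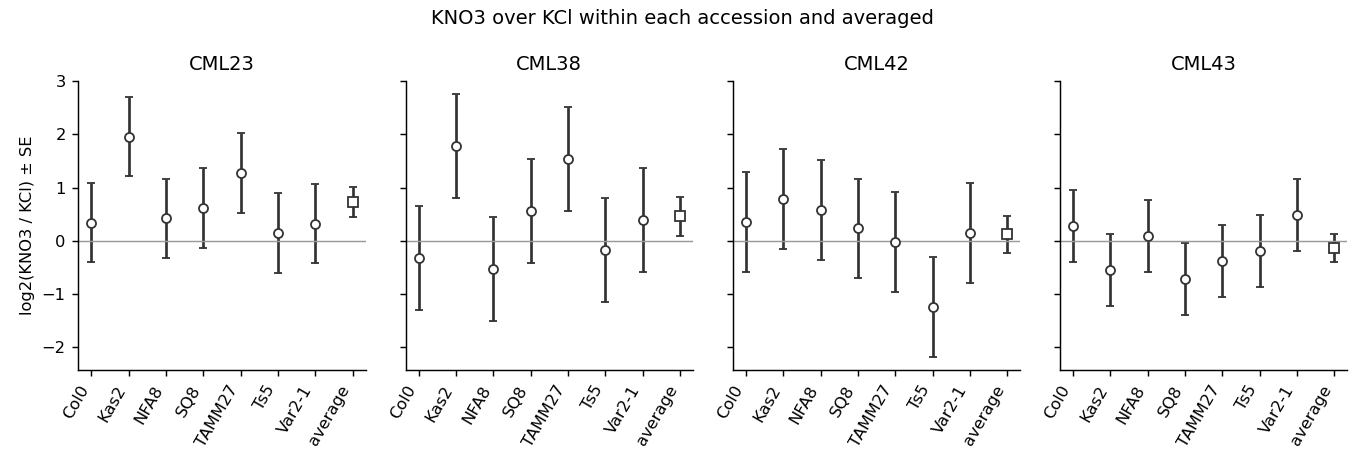
KNO3 over KCl as a log2 difference with its SE within each accession (circles) and averaged over the accessions (square), for CML23, CML38, CML42 and CML43. Open symbols did not pass the adjusted p of 0.1. The differences of CML23 all lie above 0, with 1.96 in Kas2 and an average of 0.73.

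The 3 genes below the filter lay mostly under the detection limit. CML37, a relative of CML38 known from drought and herbivore responses, had 137.8, 110.9 and 216.5 in KNO3, against 23.6, 55.5 and 27.3 in KCl, in Kas2. In Ts5 it had 14.4, 31.4 and 96 in KNO3, against 41.7, 336 and 246.8 in KCl. In Kas2 every KNO3 array was above 100 and every KCl array below it, while the Ts5 arrays of the 2 treatments overlapped. The Kas2 KNO3 array at 216.5 was the one with a 3' over 5' ratio of 1.89, the lowest of that accession. The share of tested probe sets without overlap in Kas2 was 19.8%. Fitted without the filter, over 13367 probe sets, CML37 differed among the accessions (adjusted p = 0.0944, limma), where 45.1% of those probe sets were called, and CML30 (0.875) and CML41 (0.521) did not. The response of CML37 was 2.14 in Kas2 (SE 0.84, adjusted p = 0.577, limma) and -2.07 in Ts5 (SE 0.84, adjusted p = 0.304, limma).

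CML41, known from plasmodesmata and callose, had 11.2, 62 and 27.2 in KNO3, against 78, 136.6 and 240.1 in KCl, in SQ8. Every KNO3 array there lay below every KCl array, where the treatments did not overlap for 9.59% of tested probe sets in SQ8, and the log2 difference was -2.31 (SE 0.72, adjusted p = 0.184, limma). In Var2-1 its arrays ran between 26.1 and 61.2, the lowest level of the 7 accessions. CML30, a sensor known from mitochondria, had its highest signal, 340.2, on Ts5 KCl replicate 1 and reached a group mean of 100 in 1 of 14 groups. In that fit 0 of the 3 genes were called for the averaged response (0.232% of its probe sets were), 0 for the interaction (0.0823%), and none in a single accession for the response (0.232% of pairs) or for the level against the other 6 (11.7% of pairs). At an unadjusted p under 0.05, 4 of their 21 responses within single accessions were found, where 5.77% of all such pairs were. These were CML37 in Kas2 (2.14), TAMM27 (1.83) and Ts5 (-2.07), and CML41 in SQ8 (-2.31). They came from 2 genes mostly under the detection limit and went in both directions, so they are not read as a shared response.

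**Figure D4:**
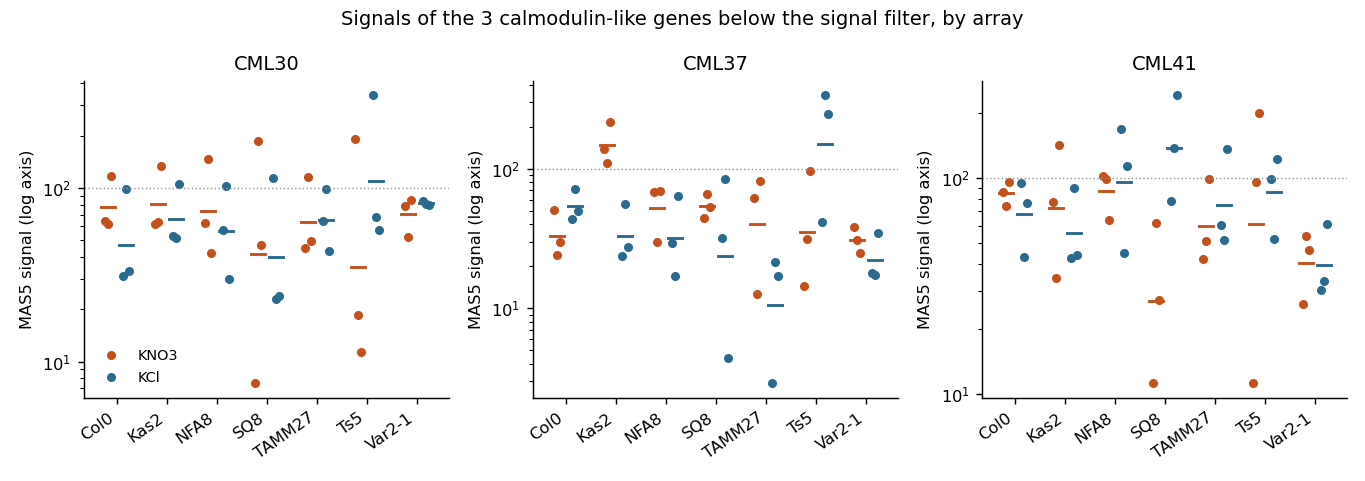
MAS5 signal (log axis) of CML30, CML37 and CML41 on each array, by accession, with KNO3 arrays left of KCl arrays. Points are single arrays, short lines are means on the log2 scale over 3 arrays, and the dotted line is the signal of 100. CML37 lies above the line in Kas2 KNO3 (110.9 to 216.5) and below it in Kas2 KCl (23.6 to 55.5).

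Over the 42 arrays and over the accession levels, CML23 and CML38 were the most alike of the 7 genes. Their log2 signals had r = 0.76 over the 42 arrays, 0.63 after group means were taken out and 0.88 over the levels of the 7 accessions. CML23 and CML42 had r = 0.57 over the arrays, CML38 and CML42 0.55, and CML37 and CML38 0.50. After group means were taken out, CML42 and CML43 had r = 0.64, as high as CML23 and CML38. CML41 was closest to CML43 (r = 0.50 over the arrays). CML30 had r between -0.21 and 0.07 with the others over the arrays, and between -0.57 (with CML42) and 0.15 over the accession levels. Over the KNO3 over KCl differences of the 7 accessions, CML30 and CML42 had r = 0.92, and CML23 and CML38 0.90. Both CML30 (-1.62) and CML42 (-1.25) had their lowest difference in Ts5, and CML30 lay mostly under the detection limit. These correlations are descriptions, since the genes were read from the same arrays and share each array's RNA.

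Most of these genes also moved with the 3' over 5' ratio of the arrays. Over 42 arrays the log2 signal had r = -0.67 with that ratio for CML42, -0.51 for CML43, -0.46 for CML23 and -0.40 for CML38. After group means were taken out, r was -0.77 for CML42, -0.64 for CML43, -0.63 for CML23 and -0.47 for CML38, so the arrays of a group with a higher ratio had lower signals. For CML37 the within-group r was -0.51, for CML41 -0.38 and for CML30 -0.01. In TAMM27 the ratio was 3.09, 3.24 and 1.13 on the KNO3 arrays, against 2.97, 3.09 and 1.44 on the KCl arrays, and replicate 3, with the lowest ratio, had the highest CML23 and CML38 signals in each treatment. Kas2 had ratios between 1.89 and 4.40. Its 5 arrays with a ratio above any of TAMM27 had CML23 signals of 540.9 and 242.2 in KNO3, and 99.8, 170.5 and 39.1 in KCl. Their CML38 signals were 275.4 and 194.6 in KNO3, and 42.7, 120.6 and 49.1 in KCl. The other arrays above TAMM27 in ratio were of Ts5, Var2-1 and SQ8. For CML23 they had 183.3, 72.1, 56.3 and 105.8 in Ts5, 98.7 and 67 in Var2-1, and 140.9 in SQ8. For CML38 they had 311.5, 209.1, 69.2 and 303.6 in Ts5, 95.7 and 58 in Var2-1, and 390 in SQ8.

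**Figure D5:**
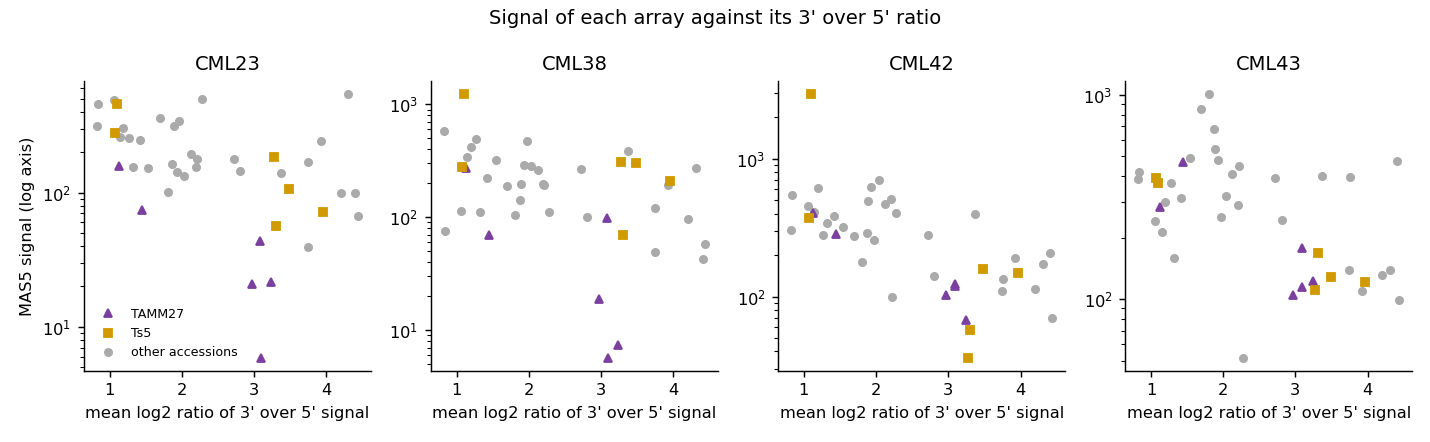
MAS5 signal (log axis) of each of the 42 arrays against its mean log2 ratio of 3' over 5' signal for CML23, CML38, CML42 and CML43. Triangles are TAMM27, squares Ts5 and circles the other accessions. Signals fall toward higher ratios, with r = -0.67 for CML42, and the 4 TAMM27 arrays with a ratio near 3 have CML23 signals of at most 43.5.

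With the ratio as a term in the fit, the lower levels in TAMM27 had nearly the same size, -2.38 for CML23 (adjusted p = 3.61e-06, limma) and -2.40 for CML38 (adjusted p = 0.000486, limma). That fit took the same slope for all accessions, and a slope of its own for TAMM27 was not tested. Under a ratio of 2.5 TAMM27 had only replicate 3 of each treatment, and the fit of such arrays left it out. The higher level of CML43 in Col0 was 0.95 with the ratio in the fit (adjusted p = 0.03, limma). In the same fit CML42 differed among the accessions (adjusted p = 0.038, limma), CML43 was lower in SQ8 (-0.93, adjusted p = 0.0436, limma), CML38 was higher in Ts5 (1.2, adjusted p = 0.085, limma) and CML23 was higher in Kas2 (1.13, adjusted p = 0.0537, limma). The averaged nitrate difference of CML23 was 0.64 in that fit (adjusted p = 0.231, limma). On the arrays with a ratio of at least 2.5 alone, 3 accessions were left (Kas2, TAMM27 and Ts5). The TAMM27 difference, there against Kas2 and Ts5 only, was -2.73 for CML23 (adjusted p = 0.00822, limma) and -3.08 for CML38 (adjusted p = 0.0137, limma). The cut took out replicate 3 of TAMM27, its highest array in each treatment for both genes.

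TAMM27 also had the most extreme levels of the markers, though its arrays overlapped those of the other accessions. The summed signal of RCA and LHCB4.1 lay between 1507.0 and 5210.6 on its arrays, and between 161.4 and 24540.9 on the others. TAMM27 had the highest level of the 7 accessions for both of these genes. The summed signal of the root hair genes EXPA7 and EXPA18 lay between 36.7 and 126.7 on the TAMM27 arrays, and between 57.1 and 809.4 on the others. Both genes were lowest in TAMM27, at levels of 30.8 and 35.1, which lie under the detection limit. All 4 markers differed among the accessions, with adjusted p between 0.00439 and 0.0563 (limma), and none was called for nitrate. Their part in the low CML23 and CML38 signals was not tested.

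Probe elements that behaved as outliers against Col0 had been discarded by the authors before the signals were made, separately for each accession and treatment. Over the 12 lists of discarded elements, CML43 lost the most, 30 in all and 7 of its 11 elements in Kas2 KCl, and CML41 the fewest, 8. CML38 kept all 11 elements in both lists of TAMM27, as did CML37 and CML41, and CML23 lost 0 in TAMM27 KNO3 and 2 in TAMM27 KCl. In Kas2, CML23 lost 1 element in KNO3 and 1 in KCl, which was not the same one, and CML38 lost 2 in KNO3 and 0 in KCl. Their KNO3 and KCl signals in Kas2 thus came from sets of elements that were mostly shared but not identical. CML37 lost 0 elements in Kas2 KNO3 and 2 in Kas2 KCl, and 1 in Ts5 KNO3 and 3 in Ts5 KCl, with 0 in common. The 7 genes lost 1.298 elements per list on average, against 1.504 over all probe sets. For none of the 4 tested genes were all elements kept in every list.

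Of the other genes of these pathways, few could be named. In the list of calcium channels and calcium-permeable receptors, 2 of 44 genes were tested, and both differed among the accessions, as did 59.8% of all tested probe sets: ATGLR1.2 (adjusted p = 0.000202, limma) and GLR3.3 (adjusted p = 0.0539, limma), members of the glutamate receptor-like family. In the list of calmodulin-binding transcription factors and IQD proteins, which bind calmodulins, 5 of 42 were tested and 4 of them differed, beside the same 59.8%, IQD28, IQD30, IQD31 and iqd32, whereas IQD23 did not. None of these 7 was called for nitrate. IQD31 had the smallest p of the IQD genes (adjusted p = 0.00224, limma), with Col0 at the highest and Ts5 at the lowest level. The lists of calcium pumps and exchangers, phosphatases, other SnRK kinases, other MAP kinase cascade genes, sensor targets and nitrate response markers had no tested member.

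A single MAP kinase with a tested probe set, ATMPK8, lay outside the rule because its symbol begins with AT, and was named for its family. In Kas2 it had 141, 87.7 and 187.9 in KNO3, against 394.4, 342.1 and 384.1 in KCl. Every KNO3 array lay below every KCl array there, as the treatments did not overlap for 19.8% of tested probe sets in Kas2, and its arrays overlapped in each of the other 6 accessions. Averaged over the accessions its log2 difference was -0.39 (SE 0.17, adjusted p = 0.504, limma), and its difference among the accessions had an adjusted p of 0.104 (limma).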

How the data were processed

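Roots of 7 accessions in KNO3 or KCl were measured on 42 ATH1 arrays, 3 biological replicates for each of 14 groups taken from the sample labels. The deposited values are MAS5 signal intensities on a linear scale, which the authors computed after discarding outlier probe elements in each accession and treatment. The MAS5 version and any further normalization between arrays are not given in the sources used here. Another 12 deposited files list the elements left out, over 22746 probe sets.

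Of 22810 probe sets, 64 are controls, 13513 have 1 gene in the platform annotation, 503 have several and 8794 have no entry. Locus tags and neighbouring genes come from the RefSeq table (TAIR10.1), which names 13436 of the 13513. In R 4.3.3 with limma 3.58.1, log2(signal + 1) was fitted with a mean for each of the 14 groups, and variances were moderated toward a trend on mean signal, over 6590 probe sets with 1 nuclear gene and a mean signal of at least 100. Two-sided tests gave the averaged and single-accession responses and the level of an accession against the other 6, F-tests gave the differences among accessions and the interaction, and p-values were adjusted by Benjamini-Hochberg at 0.1, per comparison. All members are named, and genes of the other lists by smallest p, up to 3 a list, or where a count is small. The members and gene lists were chosen with earlier results of these data known. Alternatives changed the normalization, pseudocount, filter, variance model, threshold and covariates, used the KCl arrays alone and left out each array. After the data were seen, arrays divided at a ratio of 2.5 and signals under 100 set to 100 were added. Precision is limited by 3 arrays a group. The procedure was tested on simulated data. No sequences were used here.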

Additional observations from a re-analysis of the deposited data

How the results depend on the processing

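For the 4 tested genes, 68 results were refitted, giving 3784 values under the alternatives, of which 30 lost a call, 15 gained one and none reversed a called direction. The difference among accessions was called for 3 genes, and for 2 to 4 when each array was left out in turn. It was called for 0 genes when only genes with no discarded element were counted, since every tested gene had lost some. The 4 calls for the level of a single accession were 3 to 6 with each array left out, 2 in the KCl arrays alone and 2 with every signal under 100 set to 100. The lower levels in TAMM27 kept their call without each array in turn, with CML23 between -2.86 and -2 and CML38 between -3 and -1.74. The call of CML23 in SQ8 was lost when any of 16 single arrays was left out, and also under quantile normalization (0.93, adjusted p = 0.13, limma) and scaling to a common median (0.86, adjusted p = 0.156, limma). The accession call of CML43 was lost without Col0 KNO3 replicate 3 (adjusted p = 0.103, limma). CML38 was no longer called among accessions on the arrays with a ratio under 2.5 (adjusted p = 0.327, limma), where TAMM27 is absent. The causes of the other changes were not tested.

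The counts for the averaged response, the interaction and the single accessions were 0 under all alternatives run, in limma and in the linear model without moderation. Over all tested probe sets, the ratio as a term in the fit changed the calls for the averaged response to 109, against 52 without it, those for the interaction to 43, against 13, and those within single accessions to 387, against 149. Same-numbered KNO3 and KCl arrays did not deviate together throughout (r between -0.222 and 0.692 over 21 pairs, 11 of them over 0.1, with 12 of 21 KNO3 arrays closest to their own number), so the numbers were not taken as pairs. In TAMM27 (0.413 to 0.692), Var2-1 (0.402 to 0.427) and Col0 (0.185 to 0.218) all 3 same-numbered pairs were over 0.1, as a hint from the data. With the replicate block, 3 genes differed among accessions, 4 levels were called, and the 3 nitrate counts were 0, with TAMM27 responses of 1.27 for CML23 and 1.54 for CML38 (adjusted p = 0.999 for each, limma). Signals under 100 and 3 arrays a group limit these values, as the SE of a response in a single accession was between 0.68 and 0.98.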
